A study of Caenorhabditis elegans with 119 samples.

Results

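The col genes of Caenorhabditis elegans encode the collagens of the cuticle, the extracellular coat that covers the worm. The members described here are all genes whose symbol on the build WBcel235 is col- followed by a number, which gave 156 of the 46926 genes counted. The choice rested on names and used no measured value. Cuticle collagens are made by the hypodermis, the epidermal layer under the cuticle, and most genes encode a short protein with a Gly-X-Y repeat. Each larval stage and the adult builds its cuticle from a different set of them, with a burst of transcription at each moult. The proteins are hydroxylated on proline and lysine, trimmed by proteases and then cross-linked outside the cell. Adults do not moult, and the decline of collagen transcripts with adult age is a known feature of worm ageing.

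RNA from whole adult worms was sequenced in 119 libraries of about 50 worms each. The worms were PX991, which carries daf-16(fx107), EU1, which carries skn-1(zu67), and the wild-type strain N2. DAF-16 and SKN-1 are transcription factors of the insulin and stress-response pathways. Worms of all strains were placed on day 1 of adulthood on plates with sulforaphane (SFN), an isothiocyanate of broccoli, or with its solvent DMSO alone. The dose of SFN was not given in the sources used here. All plates, controls included, held 51 µM of FUdR, which stops offspring from developing, and a final DMSO concentration of 0.25%, with E. coli OP50-1 as food at 20 °C. PX991 and EU1 were collected at days 4 and 12, with 4 libraries per group in PX991 and 6 in EU1, except for EU1 on SFN at day 4, which had 5. N2 was collected on SFN and on DMSO at days 2, 4, 8, 12 and 16, with 4 libraries per group in the table with both treatments. A further 40 N2 libraries, all on DMSO, came from trials 2 and 3, with 4 per age and trial. Each strain was a single line. Replicates of EU1 numbered 4 to 6 were collected at separate times, and those of the other groups were aged and collected together.

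Library totals ran from 585309 to 5460987 counts in PX991, from 2056562 to 10286438 in EU1, from 444501 to 12536097 in the N2 table with both treatments and from 1071727 to 8611922 in trials 2 and 3. CPM below is a gene's count scaled to its library's total as adjusted by edgeR's TMM factors. Transcripts of skn-1 stood at 78.8 to 150 CPM in EU1, against 224 to 332 CPM in N2 with both treatments, and transcripts of daf-16 stood at 54.1 to 173 CPM in PX991, against 109 to 264 CPM in N2. The lesions of the alleles are not given in the labels, and these levels say nothing of the protein. The ranges did not overlap for skn-1 and overlapped for daf-16, and N2 and the mutants came from separate tables. In all, 3 libraries stood apart in both depth and genes seen. N2 on DMSO at day 2, replicate 1, and N2 on DMSO at day 4, replicate 4, held 36 and 26 members with a count and 7116 and 6660 genes at a common depth. PX991 on SFN at day 12, replicate 3, had 585309 counts and 15327 genes at a common depth. Counts of members called for SFN at those ages and the collagen share are also given without these libraries. EU1 on SFN at day 4, replicate 3, was not thin but showed 9420 genes at a common depth, against 10687 to 11105 in its group. Its chi-square per degree of freedom against its replicates was 144 to 250, against 7.7 to 16.4 among the others. For EU1 on DMSO at day 4, replicate 3, it was 51.9 to 119, against 4.23 to 24.5. Leaving out any 1 library left 0 members called for SFN in EU1 at day 4. Markers of the hypodermis without collagens were present in every group, as 9 matched genes summed to 317.5 CPM or more in the mutants and none of the 9 was at 0 in the groups of days 4 and 12.

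The 156 genes were spread over all 6 chromosomes, with 21 on I, 24 on II, 12 on III, 41 on IV, 31 on V and 27 on X. Their summed exon length ran from 465 to 2960 bases, with a median of 1020, and 71 of them had 2 exons. Of the 156, 50 lay in 21 clusters in which neighbours were at most 10000 bases apart, and the largest cluster was col-167 to col-171 on chromosome X. Exons of 52 members overlapped an exon of another gene, on the opposite strand for 46 of them. The first table was counted without strand, so reads of such a member and of its partner cannot be told apart there. For 7 members an overlap was on the same strand. Among these, exons of col-159 and col-160 overlap each other, so reads in the shared stretch cannot be told apart by strand either. Values of both carry that uncertainty below. Reads shared between near-identical collagens could also be lost or split between them, and values of neighbouring copies such as col-178 and col-179 carry that uncertainty.

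Few collagens carried nearly all of the signal in adults. In the N2 table with both treatments, the 10 most abundant members took 73.48% of all collagen counts and the 20 most abundant took 96.69%. On the scale of CPM per kilobase of exon, averaged over all 40 libraries of that table, col-119 led with 1432, followed by col-122 with 1364 and col-140 with 999.3. Then came col-181 at 967.7, col-143 at 873.1, col-106 at 734.9, col-184 at 662.5, col-95 at 645.9, col-178 at 541.9 and col-8 at 471.8 CPM per kilobase. These averages are weighted towards day 2, and the order changed with age. At day 12, col-122 led on SFN with 1274 CPM per kilobase, ahead of col-181 with 1026 and col-119 with 969, and it also led on DMSO with 118, ahead of col-181 with 83.5 and col-119 with 83.3. Under the filter on low counts, 55 members could be tested in at least 1 of the 6 fits, and 27 in all of them. The other 101 were too low everywhere, with no group mean above 6.368 CPM.

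The best-known members were mostly among those that adults barely transcribed. Of 4 collagens whose genes have been tied to long life in insulin-signalling mutants, col-10 reached at most 0.921 CPM as a group mean, col-13 at most 0.425 CPM, col-120 at most 1.395 CPM and col-144 at most 4.02 CPM. The dauer-stage collagen col-2 reached at most 1.16 CPM. The epidermal collagen col-12, whose promoter is widely used to drive genes in the skin, reached at most 0.597 CPM. Of collagens described in adults, col-7 reached at most 0.493 CPM and col-62 at most 0.75 CPM. In contrast, col-19, the standard marker of the adult cuticle, was abundant. So was col-119, listed with them for a known role or stage, which led all members per kilobase. Both are described below. The same held for the targets of the DBL-1 (BMP-like) pathway, where col-41 reached at most 1.341 CPM and col-141 at most 1.31 CPM, but col-142 averaged 48.5 CPM in N2 on DMSO at day 2. Their neighbour col-143, less than 10000 bases away on chromosome V, was among the most abundant members.

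Collagens made up a falling part of the library as N2 worms aged, and SFN worms held more of it from day 4 on. On SFN, the 156 genes took 3.16 ± 0.45% of all counts at day 2, 1.16 ± 0.3% at day 4, 0.717 ± 0.052% at day 8, 0.701 ± 0.19% at day 12 and 0.32 ± 0.064% at day 16. On DMSO they took 3.52 ± 1.3% at day 2, 0.603 ± 0.14% at day 4, 0.39 ± 0.046% at day 8, 0.0723 ± 0.014% at day 12 and 0.0558 ± 0.024% at day 16 (SD, n = 4 libraries in each group). Without the thin libraries, the share on DMSO was 2.86 ± 0.28% at day 2 and 0.658 ± 0.11% at day 4 (n = 3 each). At day 12 the 4 SFN libraries lay between 0.5188% and 0.9093%, and the 4 DMSO libraries between 0.05377% and 0.08484%. The groups were thus far apart at day 12 and overlapped at day 2. In whole worms, fewer epidermal cells and less collagen RNA per cell cannot be told apart.

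**Figure D1:**
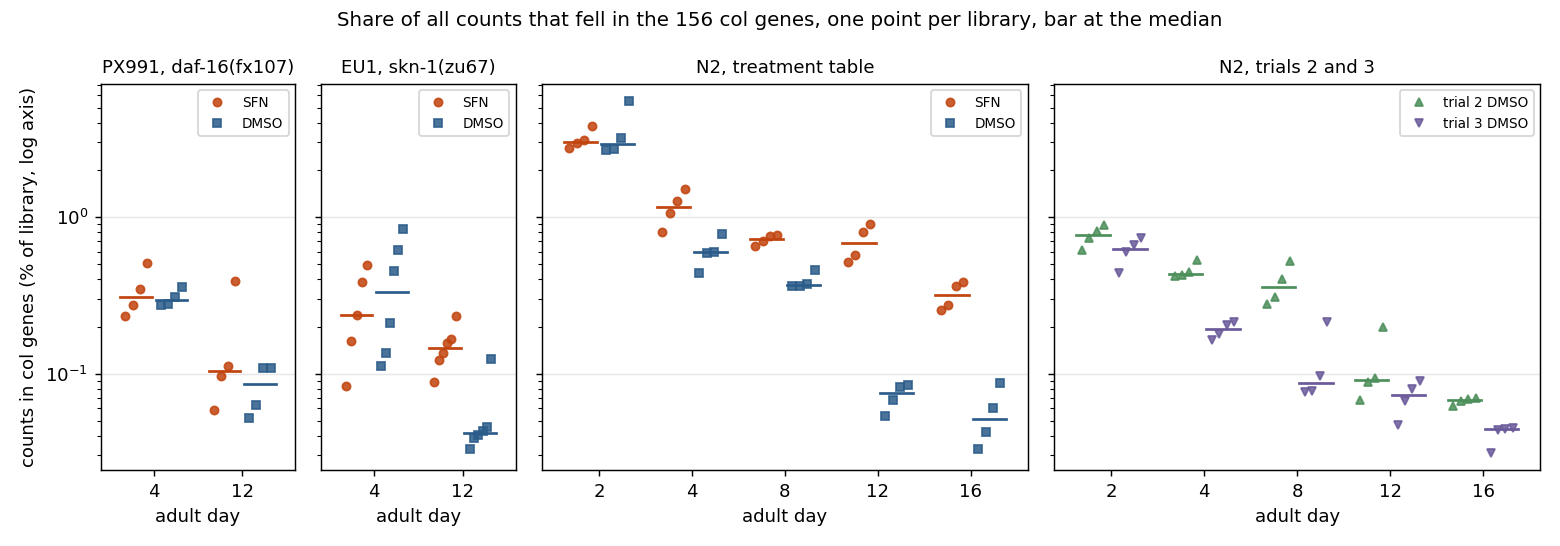
Percent of each library's counts that fell in the 156 col genes (log axis) by adult day, with 1 point per library and a bar at the median, for PX991, EU1, the N2 table with both treatments and N2 trials 2 and 3. In N2 at day 12 the SFN points lie at 0.5188% or more and the DMSO points at 0.08484% or less, while at day 2 the points of the treatments overlap.

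For each gene, SFN and DMSO libraries of the same strain and age were compared with edgeR's quasi-likelihood test. A change was called at a Benjamini-Hochberg adjusted p under 0.05 over all genes tested, and 54 members could be tested in N2. Their direction was upward at every age but the first. At day 2, 1 member was called and it was lower, at day 4 16 were higher, at day 8 13 were higher, at day 12 27 were higher and at day 16 23 were higher and 1 lower. The shares of all 12735 tested genes that were called in either direction were 4.33% at day 2, 10.3% at day 4, 3.53% at day 8, 18.8% at day 12 and 19.3% at day 16. Called higher were 2.70%, 7.06%, 2.84%, 13.8% and 11.9% of all tested genes at those ages. The median log2 fold change of the 54 members was -0.12 at day 2, 0.80 at day 4, 0.70 at day 8, 2.33 at day 12 and 1.42 at day 16, while the median of all genes stayed between -0.02 and 0.10.

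**Figure D2:**
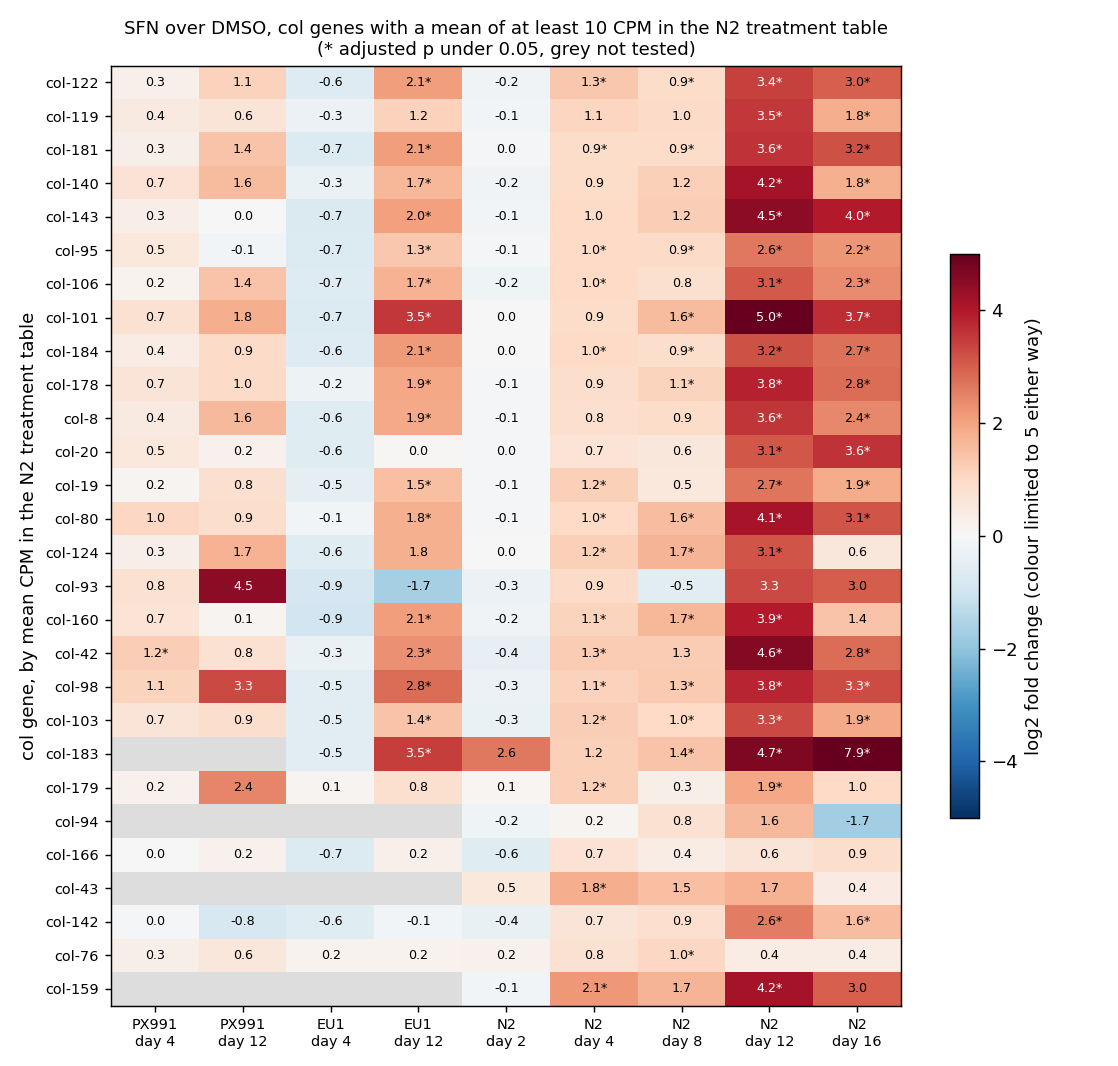
log2 fold change of SFN over DMSO for the 28 members with a mean of at least 10 CPM in the N2 table with both treatments, with an asterisk where the adjusted p was under 0.05 and grey where a gene was not tested. The day 12 column of N2 holds 23 called rises, PX991 at day 4 holds 1 and PX991 at day 12 holds none. Entries of col-93 at N2 day 16 and at PX991 day 12 rest on groups with no count and are fitted values only.

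The change at day 12 lay with the abundant members. Of the 28 members with a mean of at least 10 CPM in this table, all had a positive log2 fold change at day 12, 23 were called, and their median was 3.38. Of the 26 tested members below that level, 4 were called and the median was 0.26. At day 4 the called counts were 15 of 28 and 1 of 26, at day 8 13 of 28 and 0 of 26, and at day 16 19 of 28 higher and 4 of 26 higher. Chromosome by chromosome, the 27 members called at day 12 were 0 of 3 tested on I, 2 of 8 on II, 4 of 8 on III, 7 of 15 on IV, 8 of 13 on V and 6 of 7 on X.

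Among the abundant members, col-122 on chromosome IV was one of those that kept most of their day 2 level. At day 2 it had 3696, 2877, 2992 and 2542 CPM on SFN, against 5358, 3195, 2727 and 2375 CPM on DMSO, and the groups overlapped. At day 4 it had 2465, 1999, 1639 and 1159 CPM on SFN, against 753, 638, 1043 and 412 CPM on DMSO. All SFN libraries stood above all DMSO libraries, by 1.33 ± 0.26 on the log2 scale (SE, adjusted p = 0.0015, edgeR). Day 8 gave col-122 at 1562, 1344, 1167 and 1383 CPM on SFN, against 707, 734, 669 and 787 CPM on DMSO. At day 12 the SFN libraries still held 1440.5, 1533, 1006 and 896 CPM, against 77.9, 139, 102 and 133 CPM on DMSO. That difference was 3.43 ± 0.28 on the log2 scale (adjusted p = 3.9e-11, edgeR), and the groups did not overlap. At day 16 the values of col-122 were 666, 673, 468 and 556 CPM on SFN, against 49.3, 94.4, 91.2 and 62.5 CPM on DMSO.

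Within the N2 table with both treatments, many collagens thus kept a larger part of their day 2 level on SFN. At day 12, col-181 stood at 49% of its own day 2 mean on SFN and at 3.85% on DMSO. For col-122 the shares were 40.3% on SFN and 3.31% on DMSO, for col-184 38.1% and 4.24%, for col-143 31.8% and 1.28%, for col-106 31.2% and 3.17%, and for col-95 26.8% and 4.05%. Without the thin DMSO library of day 2, the DMSO shares of these 6 ran from 1.54% for col-143 to 4.88% for col-95. Others fell by far more under both treatments. The day 12 share of col-20 was 0.386% on SFN and 0.0421% on DMSO, and that of col-93 was 0.0301% on SFN and 0.00126% on DMSO. Set against the DMSO worms of the age before, the SFN mean was higher for 8 of the 54 tested members at day 4, for 30 at day 8, for 27 at day 12 and for 41 at day 16, a description with no test. Collagens took 3.52% of counts on DMSO at day 2 in this table, against 0.765% in trial 2 and 0.608% in trial 3. At day 8, DMSO worms of trial 2 kept 88.7% of the day 2 mean of col-181, 80.7% of col-106 and 69.7% of col-122. Those of trial 3 kept 36.8%, 29.3% and 30.1%, and SFN worms kept 53.2%, 39.8% and 45.1%.

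**Figure D3:**
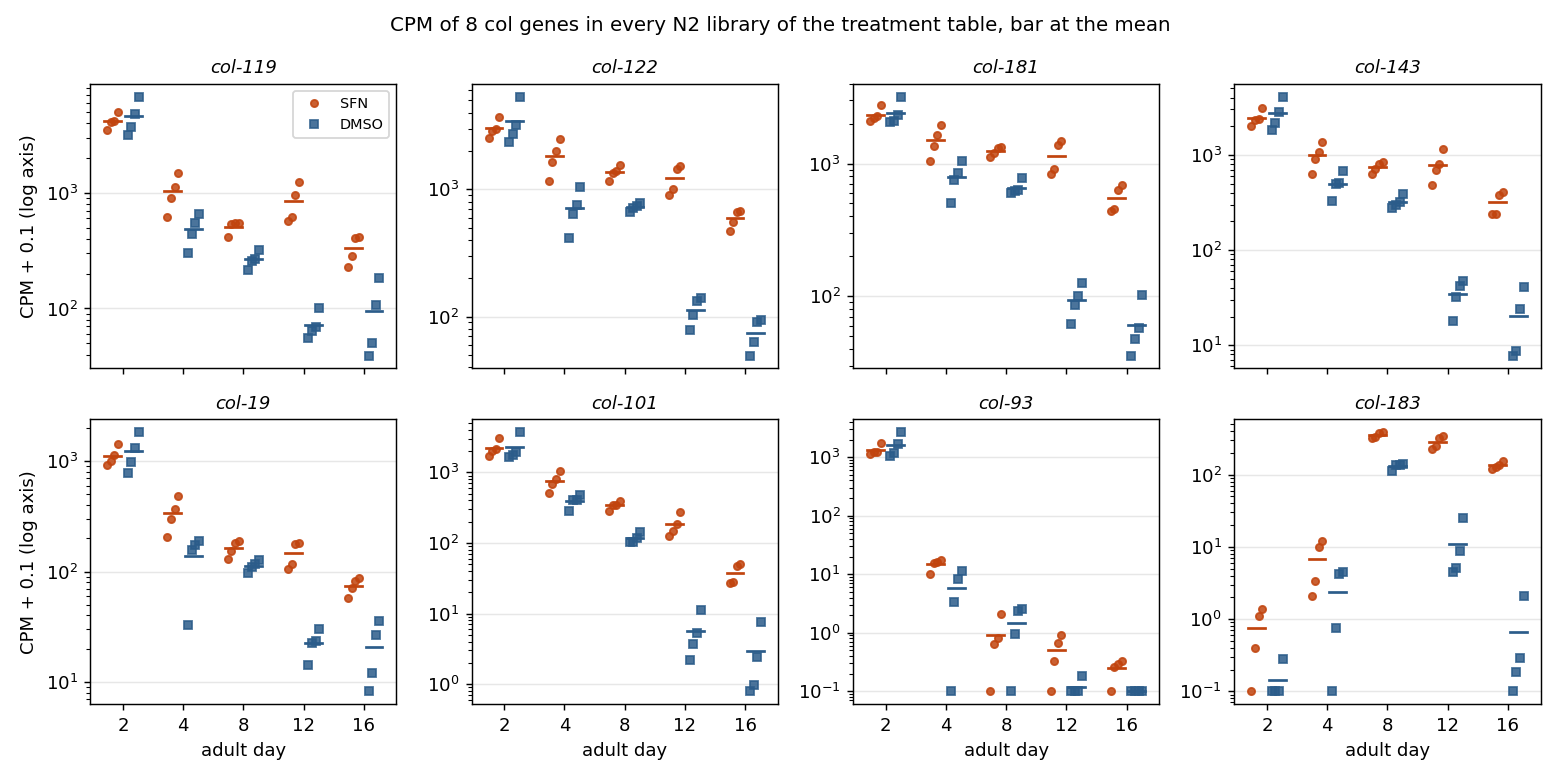
CPM plus 0.1 (log axis) of 8 col genes in every N2 library of the table with both treatments by adult day, with SFN left of DMSO and a bar at the mean. At day 12 the SFN points of col-119, col-122, col-181, col-143, col-19, col-101 and col-183 all lie above the DMSO points, and col-93 is near 0 in both.

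At day 12 the steepest difference was that of col-101 on chromosome IV, which had 187, 272, 149 and 127 CPM on SFN, against 2.11, 5.27, 3.56 and 11 CPM on DMSO, a log2 fold change of 5.01 ± 0.44 (adjusted p = 1.4e-10, edgeR). Next were col-183 on chromosome X at 4.67 ± 0.38 and col-42 at 4.61 ± 0.46. For col-143 the libraries read 807, 1149.6, 687 and 486 CPM on SFN, against 17.9, 47.7, 32.4 and 41.4 CPM on DMSO. All 4 SFN values were more than the highest DMSO value, as they were for each of the 27 called members. The share of all called genes without overlap was not taken. Counts of members without overlap, here and below, therefore describe the called members and add nothing to the calls. Rises of col-159, col-140, col-80, col-160, col-178 and col-98 were between 3.83 and 4.18 on the log2 scale, but col-159 rested on 17 counts on SFN and 1 count on DMSO. Leaving out any 1 of the 8 libraries left 27 or 28 members called at day 12.

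The adult-cuticle marker col-19 followed the same order at a lower size. At day 12 col-19 had 179, 180.1, 118 and 106 CPM on SFN, against 23.5, 30.3, 22.6 and 14.2 CPM on DMSO, with a log2 fold change of 2.69 ± 0.37 (adjusted p = 1e-06, edgeR). For col-119, the member highest per kilobase at day 2, they were 948, 1242, 612 and 569 CPM on SFN, against 55.6, 101, 69.4 and 63.8 CPM on DMSO, or 3.54 ± 0.38 on the log2 scale (adjusted p = 1.2e-08). The DBL-1 target col-142 also rose, by 2.56 ± 0.52 (adjusted p = 0.00018). Transcripts of col-99, which encodes a transmembrane collagen rather than a cuticle protein of the usual kind, averaged 2.56 CPM on SFN and 3.05 CPM on DMSO and were not called (-0.30 ± 0.48, adjusted p = 0.74).

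At day 4 the called rises were smaller. The 3 largest were col-159 at 2.15 ± 0.49, col-34 at 2.05 ± 0.67 and col-43 at 1.81 ± 0.55 on the log2 scale (SE, adjusted p = 0.0031, 0.041 and 0.028, edgeR). Of these, col-34 had 10.4, 7.3, 5.4 and 2.68 CPM on SFN, against 4.48, 0, 0 and 0 CPM on DMSO, and the groups overlapped. For col-103 they were 169, 118, 83 and 70.7 CPM on SFN, against 47.8, 35.4, 61.7 and 32.8 CPM on DMSO, without overlap (1.24 ± 0.27, adjusted p = 0.0031). Of the 16 members called, 11 had groups that did not overlap. The count fell to 5 without SFN replicate 1 and to 9 without SFN replicate 2, and leaving out the thin DMSO library of replicate 4 together with that of day 2 gave 20. A fit on the 8 libraries of day 4 alone called 2.

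At day 8 the called rises were between 0.90 and 1.70 on the log2 scale. The DMSO values of a member were close to each other at this age, and all 13 called members had groups without overlap. The 3 largest were col-124 at 1.70 ± 0.35, col-160 at 1.68 ± 0.37 and col-101 at 1.58 ± 0.36 (SE, adjusted p = 0.0023, 0.0042 and 0.0067, edgeR). Per library, col-124 had 53.8, 48, 36.7 and 46.9 CPM on SFN, against 14.7, 13, 14 and 16.3 CPM on DMSO. The count at day 8 was sensitive to single libraries. It was 5 when SFN replicate 1 or 4 or DMSO replicate 1 or 3 was left out, 7 when SFN replicate 2 was left out and 4 when DMSO replicate 2 was. A fit on the 8 libraries of day 8 alone called 24.

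At day 16 most of the abundant members were still higher on SFN, now at lower levels. The rise of col-143 was 3.96 ± 0.41 (adjusted p = 1.2e-08, edgeR), with 382, 404, 238 and 239.9 CPM on SFN, against 7.7, 23.9, 41 and 8.51 CPM on DMSO. For col-181 it was 3.19 ± 0.28, for col-122 2.99 ± 0.28 and for col-101 3.70 ± 0.49. A rise was also called for col-139, by 4.48 ± 1.11, but on 20 counts on SFN and 1 count on DMSO. The 1 member that fell, col-135, had no count in the 4 SFN libraries, against 9, 12, 8 and 4 counts on DMSO, and with the floor of 3 counts over the group it was lower by at least 2.40 on the log2 scale (adjusted p = 0.023, edgeR). Of the 24 called members, 22 had groups without overlap, and leaving out any 1 library left 22 to 25 called.

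Many members were called higher at more than 1 age. Of the 16 members that rose at day 4, 15 also rose at day 12, which is 15 of the 27 at day 12, and of the 13 that rose at day 8, 12 rose at day 12. Between day 12 and day 16, 21 members were shared, of 27 and 23. The share of all called genes that recurred between ages was not taken, so these counts describe the members only. In all 31 members were called higher at 1 or more ages and 2 lower, and 7 of the 31, col-80, col-95, col-98, col-103, col-122, col-181 and col-184, at 4. The lone call at day 2 was a fall of col-116 by 3.15 ± 0.95 on the log2 scale (adjusted p = 0.047, edgeR). It had 1, 1.48, 0.638 and 0.867 CPM on SFN, against 43.2, 0.894, 2.01 and 4.11 CPM on DMSO, so that the groups overlapped and 1 library held the difference. No member was called without that library, DMSO replicate 1, which is 1 of the thin ones, nor without any 1 of the 4 SFN libraries, and 2 were called without DMSO replicate 3. Exons of col-116 overlap those of F17E9.2 on the same strand.

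The size of the SFN difference grew between day 4 and day 12 in N2, as the difference of the 2 effects was tested within the same fit. It was called for 19 of 54 members, all larger at day 12, while 4.48% of all genes were called in either direction and 3.39% as larger at day 12. The leading members were col-101 at 4.08 ± 0.55, col-143 at 3.51 ± 0.52, col-183 at 3.48 ± 0.87, col-42 at 3.35 ± 0.60 and col-140 at 3.24 ± 0.57 on the log2 scale (SE, adjusted p between 5.6e-06 and 0.014, edgeR). Left out of these 19 was col-19, for which the growth of 1.51 ± 0.49 had an adjusted p of 0.080. For col-183 the adjusted p was 0.068 without DMSO day 4 replicate 1 and 0.11 without DMSO day 4 replicate 3. Depth did not overlap between the treatments at days 12 and 16. Totals at day 12 ran from 3676850 to 8619547 counts on SFN and from 10569626 to 12536097 on DMSO. At day 16 they ran from 3230265 to 5891474 on SFN and from 8112059 to 10402676 on DMSO. By what read as well codes in the library labels, SFN and DMSO libraries shared a plate column at day 8 only. At the other ages treatment and plate column went together. The part of depth and of well position in the SFN differences, and in their growth, was not tested.

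Apart from the rest stood col-183, at position 13466643 to 13467764 of chromosome X on the minus strand, in that it was almost absent from young adults. At day 2, SFN libraries had 1, 0.297, 1.28 and 0 CPM, against 0, 0.179, 0 and 0 CPM on DMSO. At day 8 col-183 stood at 374, 322, 334 and 385 CPM on SFN, against 136, 112, 134 and 142 CPM on DMSO, a log2 fold change of 1.43 ± 0.33 (adjusted p = 0.0062, edgeR). By day 12 the DMSO worms had lost most of it and the SFN worms had kept most of it, with lower levels on SFN by day 16. Day 12 gave 319.6, 341, 225 and 247 CPM of col-183 on SFN, against 5.01, 4.37, 8.69 and 25.2 CPM on DMSO. Day 16 gave 118, 153, 136 and 128 CPM of col-183 on SFN, against 0.0856, 2.01, 0.192 and 0 CPM on DMSO, which was 2577 counts against 22 and a log2 fold change of 7.88 ± 0.55 (adjusted p = 1.6e-12, edgeR). The peak at day 8 recurred in the DMSO worms of the other trials, with 94.2, 91.6, 65.6 and 79.6 CPM of col-183 in trial 2 and 22.6, 18.9, 14.5 and 82.2 CPM in trial 3. Its neighbour col-184, less than 10000 bases away on the other strand, peaked at day 2. Exons of col-183 overlap those of F02D10.10 on the opposite strand, whose reads cannot be told apart in the first table.

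The age course on DMSO alone was tested in the 40 libraries of trials 2 and 3, with the trial as a term, and 41 members could be tested. Falls outnumbered rises in every step of age, with 25 members lower and 2 higher at day 4 against day 2, 18 lower and 2 higher at day 8 against day 4, 30 lower and 2 higher at day 12 against day 8, and 8 lower and 1 higher at day 16 against day 12. Over all 10899 genes tested, 18.4%, 28.5%, 31.8% and 8.99% were called in either direction in these 4 steps, and 8.75%, 14.3%, 16.4% and 5.12% were called lower. The median log2 fold change of the members was -1.13, -0.66, -1.36 and -0.50 in the 4 steps. Each step shares its libraries with the next, so the steps are not independent of each other. Markers of other tissues moved in the same steps. Of 8 body wall muscle markers, 6, 3, 4 and 0 were lower and 0, 0, 0 and 3 higher in the 4 steps, and of 8 intestine markers 1, 3, 5 and 1 were lower and 0, 1, 0 and 0 higher. Of 8 tested hypodermis markers without collagens, 1, 1, 1 and 2 were lower and 2, 0, 1 and 0 higher. Their part in the collagen falls was not tested.

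Within a single trial, with 4 libraries per age, fewer members were called in either direction. Over both trials the counts were 27, 20, 32 and 9 in the 4 steps. Trial 2 alone called 16 members in the first step, 9 in the second, 27 in the third and 3 in the last, and trial 3 alone called 21, 18, 12 and 2. The shares of all genes called in each trial alone are not given here. The collagen share of the library was 0.765 ± 0.12% in trial 2 and 0.608 ± 0.13% in trial 3 at day 2, and 0.112 ± 0.059% in trial 2 and 0.0707 ± 0.018% in trial 3 at day 12 (SD, n = 4 each). At day 8 the trials stood further apart, with 0.378 ± 0.11% in trial 2 and 0.116 ± 0.066% in trial 3. The difference between trials was not tested.

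The early falls were steepest for col-93 on chromosome III. In trial 2 col-93 had 3.42, 6.04, 21.5 and 3.5 CPM at day 4, against 139, 152, 119 and 68.9 CPM at day 2. Trial 3 gave col-93 at 1.27, 1.1, 0.875 and 1.32 CPM at day 4, against 208, 95.9, 189 and 133 CPM at day 2. The log2 change of col-93 over both trials was -4.84 ± 0.41 (SE, adjusted p = 6.6e-11, edgeR). Its neighbour col-94, in the same cluster, fell by 3.34 and col-20 fell by 3.29 on the log2 scale. Then came col-135 at -3.15 ± 0.39, col-80 at -2.71 ± 0.35, col-160 at -2.57 ± 0.33 and col-124 at -2.30 ± 0.26.

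The abundant collagens differed in when they fell. By day 8, col-140 was at 23.2% of its day 2 mean in trial 2 and 4.56% in trial 3, col-178 at 24.5% and 6.73%, and col-119 at 47% and 8.87%. In the same trials col-122 was still at 69.7% and 30.1%, and col-181 at 88.7% and 36.8%. For col-122 the log2 change was -0.69 ± 0.23 at day 4 against day 2 and -1.18 ± 0.23 at day 12 against day 8 (adjusted p = 0.031 and 0.0002, edgeR). That of col-181 was called at day 12 against day 8, with -1.36 ± 0.24, and again at day 16 against day 12, with -1.19 ± 0.25. The steepest falls at day 12 against day 8 were those of col-43 at -3.94 ± 0.87, col-160 at -3.61 ± 0.54, col-93 at -3.32 ± 1.26 and col-124 at -3.29 ± 0.42. In this step col-101 fell by 2.75 ± 0.39, and it had 10.7, 4.08, 47 and 7.35 CPM at day 12, against 273, 162, 127 and 98.8 CPM at day 8, in trial 2. At day 16 against day 12 the leading falls were col-183 at -4.00 ± 0.65, col-101 at -2.43 ± 0.64, col-143 at -1.89 ± 0.41 and col-178 at -1.83 ± 0.52. The fall of col-101 in that step had an adjusted p of 0.063 without trial 2 day 12 replicate 3. Of the 27 members that rose on SFN at day 12 in the other N2 table, 26 could be tested here and 25 fell in at least 1 step, the exception being col-34. Most members fell in any case, as 33 of all 41 tested were lower in at least 1 step. The share of all genes lower in at least 1 step was not taken.

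**Figure D4:**
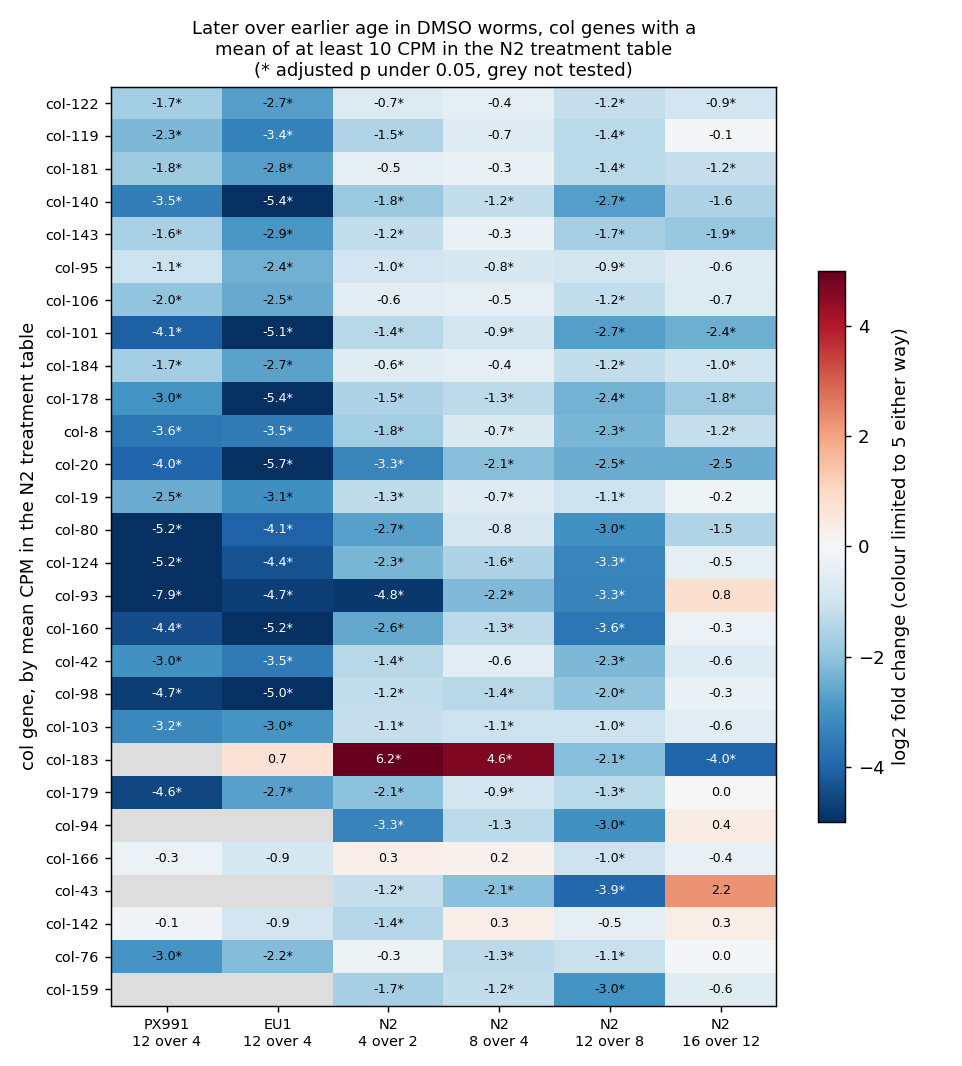
log2 fold change of the later over the earlier age in DMSO worms for the 28 members with a mean of at least 10 CPM in the N2 table with both treatments, with an asterisk where the adjusted p was under 0.05 and grey where a gene was not tested. Most entries are negative, and col-183 is positive at 4 over 2 and 8 over 4 in N2. The entries of col-183 at 4 over 2 and of col-93 in PX991 rest on groups with no count and are fitted values only.

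Few members rose with age. For col-183 there were 86 counts at day 4 and 0 at day 2, so it was higher at day 4 by at least 4.72 on the log2 scale with the floor of 3 counts over the group, and it rose again at day 8 by 4.65 ± 0.50. Called rises of col-111 at day 4 (1.05), col-38 at day 8 (1.03), col-99 at day 12 (1.08), col-34 at day 12 (0.83 ± 0.29) and col-96 at day 16 (1.49) were small on the log2 scale. All but that of col-34 lost the call without any 1 of 6 or more of the libraries, with adjusted p between 0.05 and 0.15 (edgeR). For col-34 it was lost without trial 3 day 8 replicate 2 or trial 2 day 8 replicate 3, with adjusted p = 0.058 and 0.063. In the N2 table with both treatments, the mean was highest at day 2 for 37 of 54 members on SFN and for 41 of 54 on DMSO, and in trials 2 and 3 for 29 and 31 of 41. At day 8 it was highest for 8 members on SFN, 7 on DMSO, 6 in trial 2 and 4 in trial 3.

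Mutant worms on DMSO also had less collagen transcript at day 12 than at day 4. In PX991, 24 of 28 tested members were lower and none higher. Of all 10073 genes tested there, 1812 were called lower and 36.1% were called in either direction. In EU1, 24 of 36 were lower and none higher, with 23.4% of all 11170 genes called lower and 5135 called in either direction. The median log2 fold change of the members was -2.72 in PX991 and -2.71 in EU1, and 23 members fell in both. The share of all genes that fell in both was not taken. In PX991 the leading falls were col-80 at -5.19 ± 0.56, col-124 at -5.17 ± 0.66 and col-98 at -4.70 ± 0.81, and col-93 had 0 counts at day 12 and 145 at day 4, at least 5.00 lower on the log2 scale (adjusted p = 0.00033, edgeR, floor of 3 counts over the group). EU1 was led by col-20 at -5.67 ± 0.42, col-140 at -5.37 ± 0.51, col-178 at -5.37 ± 0.52 and col-160 at -5.24 ± 0.58 (adjusted p of 4.9e-07 or less, edgeR). Of 8 intestine markers, 7 were lower in PX991 and 8 in EU1 (median log2 fold change -1.73 and -2.21), as were 3 and 6 of 8 body wall muscle markers and 6 and 5 of 11 germline markers. Of the hypodermis markers without collagens, 1 of 8 was lower and 1 higher in PX991, and 1 of 9 was lower in EU1. The part of these tissues in the collagen falls was not tested.

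In PX991, few collagens were called for SFN, although 24 of the 28 tested members had a positive log2 fold change at each age. The median at day 4 was 0.40. At day 4, 1 of 28 tested members was called higher, with 0.506% of all genes called, and at day 12 none was called, with 4.69% of all genes called. The 1 member was col-42, with 89.1, 47.7, 46.1 and 53.8 CPM on SFN, against 25.2, 27.3, 16.5 and 32 CPM on DMSO, without overlap (1.24 ± 0.27, adjusted p = 0.036, edgeR). Its adjusted p was 0.18 when SFN replicate 1 was left out, 0.066 when SFN replicate 4 was, and 0.13, 0.095, 0.2 and 0.055 when DMSO replicates 1, 2, 3 and 4 were left out in turn. At day 12, 8 of the 28 had an unadjusted p under 0.05, the median log2 fold change was 0.89, and DESeq2 called 7 members and limma-voom 0. The count was 4 when SFN replicate 2 was left out, 2 when SFN replicate 4 was and 1 when DMSO replicate 3 was. Without the thin library, SFN replicate 3, it was 0, and the median log2 fold change was 0.39. The day 12 values of col-122 in PX991 were 253, 177, 637 and 120.5 CPM on SFN, against 173, 87.1, 157 and 97 CPM on DMSO, so that the groups overlapped. The highest of these came from SFN replicate 3, in which collagens took 0.3901% of counts, against 0.05819% as the lowest SFN library, and the other 3 SFN libraries averaged 0.0887 ± 0.028% (SD). That library also held a body wall muscle sum of 743.9 CPM and a germline sum of 3375 CPM, the highest and the lowest of its group, and their part in the result was not tested.

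Almost no reads of col-183 were found in PX991. At day 12 it had 3 counts in the SFN libraries together and 4 in the DMSO libraries, or 0.601, 0, 0 and 0.726 CPM on SFN, against 1.6, 0, 0 and 0 CPM on DMSO. In EU1 at day 12, col-183 had 18.8, 52.7, 5.96, 16.7, 6.71 and 17.4 CPM on SFN, against 4.46, 1.89, 0, 3.83, 0.803 and 0.43 CPM on DMSO, and every SFN library was above every DMSO library. The rise in EU1 was 3.46 ± 0.65 on the log2 scale (adjusted p = 0.0015, edgeR). Neither mutant was collected at day 8, the age of its highest level in N2 on DMSO. The difference between its SFN effect in PX991 and that in N2 at day 12 was -4.92 ± 2.54 with an adjusted p of 0.29.

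**Figure D5:**
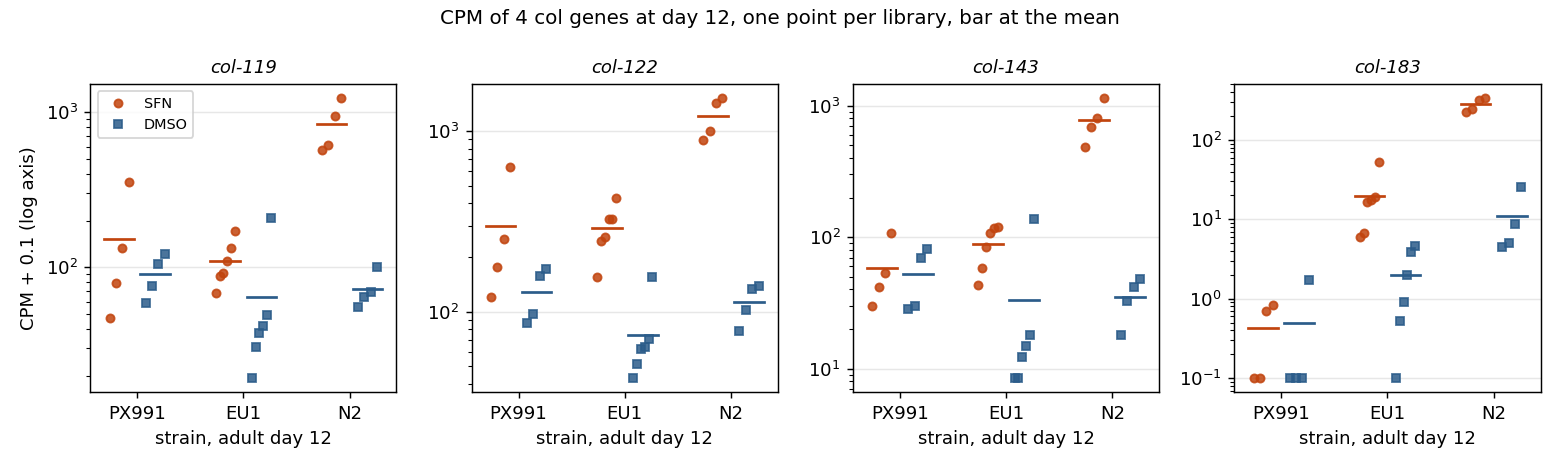
CPM plus 0.1 (log axis) of col-119, col-122, col-143 and col-183 at day 12 in PX991, EU1 and N2, with 1 point per library, SFN left of DMSO and a bar at the mean. SFN and DMSO points are apart in N2 for all 4 genes, overlap in PX991, and lie apart in EU1 for col-183 but not for col-119.

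EU1 at day 4 showed no called collagen, and at day 12 it showed many. At day 4, none of 36 tested members was called, 2 had an unadjusted p under 0.05, DESeq2 called 0, the median log2 fold change was -0.57, and 0.251% of all genes were called. At day 12, 19 of 36 were higher and none lower, with 19.3% of all genes called and 11.2% called higher, and the median was 1.46. All 19 were among the 27 members that rose in N2 at day 12. Of the other members of those 27, 6 were tested in EU1 and not called, namely col-20, col-34, col-119, col-124, col-142 and col-179. The share of all genes called in EU1 that were also called in N2 was not taken.

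In EU1 at day 12, col-122 had 325, 325, 155, 427, 259.6 and 247 CPM on SFN, against 70.2, 63.7, 42.8, 51.5, 62.4 and 156 CPM on DMSO. The groups overlapped only through DMSO replicate 6, and the log2 fold change was 2.11 ± 0.37 (adjusted p = 0.0014, edgeR). In that DMSO library collagens took 0.1246% of counts, and the lowest of the group had 0.03319%. For col-101 the values were 63.7, 44.1, 19.9, 86.8, 15.3 and 45.9 CPM on SFN, against 2.23, 4.01, 0.839, 1.04, 2.81 and 14.3 CPM on DMSO, or 3.54 ± 0.60 (adjusted p = 0.0011). Next in size after col-101 and col-183 were col-98 at 2.80 ± 0.50, col-42 at 2.30 ± 0.49 and col-184 at 2.12 ± 0.35. Of the 19 members, 6 had groups without overlap, and the count was 11 without DMSO replicate 4 and 10 without DMSO replicate 5. Replicates 1 to 3, collected together, called 17 members on their own, and replicates 4 to 6, collected at separate times, called 2. The share of all genes called in each part is not given here, and whether the SFN effect differed between the parts was not tested.

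Whether the SFN effect differed between a mutant and N2 was tested as a difference of effects in a joint fit of days 4 and 12, in which 46 members could be tested. All called differences were negative, a smaller SFN effect in the mutant. In PX991 at day 12 there were 8, with 3.92% of all genes called, led by col-143 at -4.42 ± 0.73 (SE, adjusted p = 2e-04, edgeR), col-42 at -3.79 ± 1.08, col-119 at -2.86 ± 0.68 and col-178 at -2.80 ± 0.75. The others were col-95, col-122, col-184 and col-181, between -2.72 and -2.15. Per library, col-143 had 53.5, 41.8, 107 and 29.8 CPM on SFN in PX991 at day 12, against 69.2, 29.8, 80.7 and 28.4 CPM on DMSO, so that the groups overlapped. The 8 became 3 without N2 SFN replicate 1, 5 without N2 SFN replicate 2, 3 without N2 DMSO replicate 1, 3 without PX991 DMSO replicate 1, 4 without PX991 SFN replicate 2, 14 without PX991 SFN replicate 3 and 3 without PX991 SFN replicate 4. At day 4 in PX991 none of 46 was called, 1 had an unadjusted p under 0.05, DESeq2 called 0, and 0.254% of all genes were called.

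The SFN effect in EU1 was smaller than in N2 for 9 members at day 4, with 9.60% of all genes called, and for 4 members at day 12, with 1.45% called. At day 4 the 9 were col-159 at -3.51 ± 1.04, col-43 at -3.35 ± 0.97, col-160 at -2.13 ± 0.54, col-122 at -1.97 ± 0.53, col-103, col-98, col-95, col-106 and col-184 (SE, adjusted p between 0.011 and 0.044, edgeR). The 9 became 2 without N2 SFN replicate 1, 17 without N2 DMSO replicate 3, 16 without EU1 DMSO replicate 1, 14 without EU1 DMSO replicate 3, 5 without EU1 DMSO replicate 5 or 6, and 5 and 19 without EU1 SFN replicates 4 and 5. Leaving out the thin N2 DMSO library gave 6. At day 12 the 4 were col-20 at -3.05 ± 0.80, col-143 at -2.46 ± 0.63, col-119 at -2.38 ± 0.60 and col-42 at -2.38 ± 0.64 (adjusted p between 0.033 and 0.044, edgeR). These 4 became 0 without N2 SFN replicate 1 or 2, without N2 DMSO replicate 1, 2 or 3, or without EU1 SFN replicate 5 or 6. They became 1 without N2 SFN replicate 3 or EU1 DMSO replicate 6, and 2 without EU1 SFN replicate 3, EU1 DMSO replicate 1 or EU1 DMSO replicate 3. With the replicate number as a block none was called at day 12. N2 and the mutants came from different tables, so each effect was taken within its own table.

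Between the mutants on DMSO, 1 collagen was called in all. At day 4, 1 of 39 tested members was called with 12.9% of all genes called, and at day 12 none was called with 16.4% of all genes called. The 1 member was col-20, with 35.1, 40.7, 38.2, 169, 140.4 and 239.8 CPM in EU1, against 24.6, 35.1, 37.8 and 29.8 CPM in PX991, a log2 fold change of 1.80 ± 0.51 (adjusted p = 0.017, edgeR). Replicates 4 to 6 of EU1 held the high values of col-20, and the groups overlapped. The count at day 4 was 0 without PX991 replicate 1 or 4, 2 without EU1 replicate 5 and 3 without EU1 replicate 6. At day 12 it was 2 without EU1 replicate 6, with 2 members at an unadjusted p under 0.05 in all libraries, and DESeq2 called 0.

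Other genes of the cuticle pathway were taken from lists. Of 19 further cuticle collagens named for body shape or blisters, such as dpy-17, sqt-3 and dpy-9, only 5 could be tested in N2 and none was called at day 12, with a median log2 fold change of -0.26. Of 13 tested genes for collagen processing, 4 rose at day 12 and none fell, where 13.8% of all genes were called higher. These were phy-2 (1.79 ± 0.27, adjusted p = 1.1e-06) and dpy-18 (0.62 ± 0.20), which hydroxylate proline, dpy-31 (1.74 ± 0.27), a procollagen protease, and let-268 (0.96 ± 0.34), which hydroxylates lysine. In EU1 at day 12, where 11.2% of all genes were called higher, 3 of 12 rose, namely cyn-9 (0.37 ± 0.10), dpy-31 (0.69 ± 0.22) and phy-2 (0.78 ± 0.27), and in PX991 at day 12, where 4.69% of all genes were called, none of 11 was called.

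Collagens of the basement membrane and the matrix around them moved in the same direction in N2. At day 12, 7 of 10 rose and none fell, against 13.8% of all genes called higher, with a median log2 fold change of 1.60. Those with the smallest p were ost-1 (1.45 ± 0.15), the worm SPARC, the type IV collagens emb-9 (1.96 ± 0.20) and let-2 (2.24 ± 0.24), and mig-6 (2.42 ± 0.27), a papilin (SE, adjusted p of 1.4e-08 or less, edgeR). In EU1 at day 12, 4 of 10 rose, against 11.2% of all genes, among them nid-1 (1.32 ± 0.29), and 1 fell, lam-1 (-0.91 ± 0.24). In PX991 at day 12, 2 of 10 rose, against 4.69% of all genes called, nid-1 (1.41 ± 0.34) and let-2 (1.35 ± 0.36). Without the thin library of SFN replicate 3, let-2 was not called there (0.98 ± 0.34, adjusted p = 0.11, edgeR). Of 11 genes of DBL-1 signalling, 2 rose in N2 at day 12, lon-1 (2.81 ± 0.19) and the receptor gene sma-6 (0.99 ± 0.26), a share near the 13.8% of all genes, and both rose in EU1, by 1.74 ± 0.28 and 0.65 ± 0.21. Among 10 epidermal transcription factors 3 rose in N2 at day 12, against the same 13.8%, mab-10 (1.26 ± 0.33), elt-3 (0.99 ± 0.27) and blmp-1 (1.44 ± 0.41), and none of 10 was called in EU1 or in PX991.

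Markers of several tissues moved with the collagens in N2 at day 12, where 13.8% of all genes were called higher. Body wall muscle markers summed to 703, 916.6 and 1066 CPM as lowest, median and highest on SFN, against 233.8, 256.9 and 286.2 CPM on DMSO, and 7 of 8 rose. Intestine markers summed to 1221, 1407 and 1598 CPM on SFN, against 679.4, 778.4 and 1001 CPM on DMSO, and 3 of 8 rose. The 9 hypodermis markers without collagens summed to 472.5, 531.8 and 672 CPM on SFN, against 360.8, 376.5 and 391.5 CPM on DMSO, and 4 of 9 rose, led by mup-4 (2.78 ± 0.24), which anchors the epidermis to the cuticle. Markers of the seam, the other epidermal cells, summed to 36.23, 37.85 and 48.86 CPM on SFN, against 48.74, 52.19 and 55.7 CPM on DMSO, and 1 of the 3 that could be tested rose, with a median log2 fold change of -0.41. Neuron markers summed to 414.5, 460.9 and 507.9 CPM on SFN, against 377, 398.1 and 413.6 CPM on DMSO, and 1 of 9 rose. Germline markers summed to 6907, 7243 and 7356 CPM on SFN, against 6757, 7250 and 7815 CPM on DMSO, with none of 11 called. Markers of the late larva and the moult summed to 37.92, 43.69 and 48.59 CPM on SFN, against 53.2, 55.28 and 88.87 CPM on DMSO, and 1 of 8 fell, nas-37 (-2.72 ± 0.62). The part of these tissues in the collagen differences was not tested. In EU1 at day 12, where 11.2% of all genes were called higher, muscle markers summed to 285.2, 532.2 and 661.5 CPM on SFN, against 202.2, 237.5 and 382.8 CPM on DMSO, with 3 of 8 higher, and intestine markers to 306, 382.6 and 544.1 CPM on SFN, against 103.8, 168.4 and 249.8 CPM on DMSO, with 6 of 8 higher. At day 12 in PX991 1 of 8 markers was higher in each of these 2 tissues.

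Replicates of a group agreed to different degrees. Over members with at least 10 CPM, the median coefficient of variation between replicates was 27.3% in N2 on SFN and 27.4% in N2 on DMSO at day 12. It was 89.8% in PX991 on SFN at day 12, 74.4% in EU1 on DMSO at day 12 and 73.4% in EU1 on DMSO at day 4, and 13.6% in PX991 on DMSO at day 4. In EU1 on DMSO at day 4, replicates 4 to 6 held more of col-122 than replicates 1 to 3, with 568, 874 and 1152 CPM against 203, 349.8 and 192 CPM.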

How the data were processed

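The deposited files held raw read counts per gene, which the authors made with featureCounts of Subread 2.0.2 on WBcel235, per the submitters' processing notes. The first table counted exons per gene on Ensembl release 108 without strand, per the file headers, and the aligner and the options for the other tables are not given in those sources. The files also gave each gene's summed exon length in bases. Symbols came from the Ensembl 115 annotation, which matched all 46926 IDs.

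Counts were tested with edgeR 4.0.16 (R 4.3.3) by its quasi-likelihood test, with its default filter on low counts, TMM scaling and Benjamini-Hochberg adjustment over all genes tested, separately for N2 with both treatments, N2 trials 2 and 3 with a trial term, PX991 and EU1 with a term for the time of collection, and jointly for comparisons between strains. Named were the called members with the 10 largest rises and falls of a comparison, the 10 most abundant, and 14 with a known role. Alternatives were DESeq2 1.42.0, limma-voom (limma 3.58.1), other scalings and filters, the compared groups alone, a replicate block, and leaving out each library in turn. The test was checked on simulated data.

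The members and the gene lists were chosen with earlier results of these data known. Replicate numbers paired EU1 libraries on SFN and DMSO, since the deviations of same-numbered libraries correlated at 0.121 to 0.274 in 5 pairs at day 4 and at 0.125 to 0.48 in 6 pairs at day 12, and the block left 0 and 19 members called there. No other groups were paired. Replicates were biological, per the labels' protocols. No sequences are shown, since only an annotation was used here.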

Additional observations from a re-analysis of the deposited data

Results flagged for a closer look

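In a group of 4 to 6 libraries, a library was marked when its gap to the nearest other was large for the range of its group. This was tested 140 times, in each group for the collagen share of counts and for col-119, col-122, col-140 and col-19. In all 16 marks were set, where chance sets about 1 in 20 tests. The tests share libraries and counts, so the marks are not independent of each other. The collagen share was high in PX991 on SFN at day 12, replicate 3 (0.3901%), in EU1 on DMSO at day 12, replicate 6 (0.1246%), in N2 on DMSO at day 8, replicate 4 (0.458%), and in N2 trial 3 at day 8, replicate 4 (0.2139%), and low in N2 trial 3 at day 16, replicate 4 (0.03126%). The same libraries returned for single genes. EU1 on DMSO at day 12, replicate 6, held 207 CPM of col-119, 156 CPM of col-122 and 35.0 CPM of col-140. N2 trial 3 at day 8, replicate 4, held 162 CPM of col-119, 418 CPM of col-122 and 50.2 CPM of col-140. N2 on DMSO at day 8, replicate 4, held 145 CPM of col-140. PX991 on SFN at day 4, replicate 1, held 864 CPM of col-119 and 788 CPM of col-122. For col-119, N2 on SFN at day 8, replicate 3, was low at 414 CPM, and N2 trial 2 at day 16, replicate 2, was low at 63.4 CPM.

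Effects that differed between groups by a test of the difference were the following. The SFN effect in N2 at day 12 was larger than that at day 4 for 19 members, where 3.39% of all genes were called larger. The SFN effect in PX991 was smaller than that in N2 for 8 members at day 12, where 3.92% of all genes were called, and leaving out 1 library gave 3 to 14. That in EU1 was smaller than that in N2 for 9 members at day 4, where 9.60% of all genes were called, and for 4 members at day 12, where 1.45% were. Leaving out 1 library gave 2 to 19 at day 4 and 0 to 6 at day 12, and the replicate block gave 0 at day 12.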

How the results depend on the processing

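The 27 members called for SFN in N2 at day 12 stayed between 26 and 32 and the 24 at day 16 between 20 and 28 under the other settings. Without the filter on low counts, 27 were called in N2 at day 4, 21 at day 8, 3 in PX991 at day 4 and 3 at day 12, 10 in EU1 at day 4, 2 for EU1 against PX991 at day 12, and for the difference of effects from N2 3 in PX991 at day 4, 19 in PX991 at day 12, 25 in EU1 at day 4 and 20 in EU1 at day 12. With the strict filter (10 CPM), 0 were called in N2 at day 2 and in PX991 at day 4, and 7 for EU1 less N2 at day 12. DESeq2 called 7 in PX991 at day 12, and 15, 15 and 9 for PX991 less N2 at day 12, EU1 less N2 at day 4 and at day 12. limma-voom called 0, 5 and 24 in N2 at days 2, 4 and 8, 3 in PX991 at day 4, 7 in EU1 at day 12, 9 for EU1 against PX991 at day 4, 3 at day 16 against day 12, and 13, 0 and 1 for the same 3 differences. The groups alone gave 0, 2 and 24 in N2 at days 2, 4 and 8, 2 in PX991 at day 4, 21 at day 12 against day 8 and 12 for EU1 less N2 at day 12. With the replicate block, 0 were called in N2 at day 2, 2 in PX991 at day 12, 1 for EU1 against PX991 at day 12 and 0 for EU1 less N2 at day 12, and no other count moved by over 1.5 times. The settings added after the data were seen gave 16 at day 4 against day 2 and 9 at day 8 against day 4 in trial 2 alone, 12 at day 12 against day 8 in trial 3 alone, 3 and 2 at day 16 against day 12 in trials 2 and 3 alone, and 2 in EU1 at day 12 with replicates 4 to 6 alone. Without the thin N2 DMSO libraries, 0 were called in N2 at day 2. The cause of these shifts was not tested.

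Leaving out 1 library gave 0 to 2 calls in N2 at day 2, 5 to 23 at day 4, 4 to 13 at day 8, 27 to 28 at day 12, 22 to 25 at day 16 and 17 to 20 for day 12 less day 4. It gave 0 to 1 in PX991 at day 4, 0 to 4 at day 12, 0 to 0 in EU1 at day 4 and 10 to 22 at day 12. It gave 0 to 3 and 0 to 2 for EU1 against PX991 at days 4 and 12, 0 to 1 and 3 to 14 for PX991 less N2, and 2 to 19 and 0 to 6 for EU1 less N2. In the age steps it gave 24 to 31, 16 to 22, 28 to 32 and 6 to 11 in N2, 22 to 24 in PX991 and 24 to 26 in EU1. The only called log2 fold change that turned round was that of col-93 at day 12 against day 8, at 0.94 in trial 3 alone (adjusted p = 0.64, edgeR), where it had almost no counts. Among single genes, leaving out 1 library kept direction and call 4394 times and lost the call 334 times. The thinnest libraries held 585309 counts (PX991 on SFN at day 12) and 444501 counts (N2 on DMSO at day 4), and the part of depth in the number of calls was not tested.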

Other observations

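Other genes of the cuticle and matrix lists had called changes that are not described above. In N2 at day 4, the cuticle collagen gene sqt-3 was higher on SFN by 3.51 ± 0.74 on the log2 scale (SE, adjusted p = 0.0014, edgeR), the 1 call among 5 tested collagens with names other than col, and bli-3, the dual oxidase that cross-links cuticle proteins, by 1.29 ± 0.43 (adjusted p = 0.045). The basement membrane genes ost-1 (0.96 ± 0.16), let-2 (1.40 ± 0.24), emb-9 (1.01 ± 0.20) and unc-52 (1.06 ± 0.26) were already higher at that age, among 6 of 10 in that list, where 7.06% of all genes were called higher. Of the matrix metalloproteinase genes, zmp-4 was higher on SFN at day 12 in N2 (1.94 ± 0.26) and in EU1 (1.03 ± 0.29), and zmp-3 in EU1 (1.76 ± 0.37). The cuticlin gene cut-6 was higher in N2 at day 12 by 2.60 ± 0.69 (adjusted p = 0.0042). In PX991 at day 12, noah-1 (0.98 ± 0.28) and noah-2 (1.46 ± 0.31), which encode matrix proteins of the larval cuticle, were higher on SFN, where 4.69% of all genes were called, as were dpy-17 (1.58 ± 0.46) and the moulting gene mlt-11 (1.64 ± 0.40), while the astacin protease gene nas-37 was lower (-2.28 ± 0.39). The PX991 SFN group holds the library of replicate 3 in which the late-larva markers summed to 176.3 CPM, the highest of the group. Without that library noah-1 (1.00 ± 0.29, adjusted p = 0.034), noah-2 (1.47 ± 0.35, adjusted p = 0.0095), mlt-11 (1.15 ± 0.35, adjusted p = 0.049) and nas-37 (-2.22 ± 0.40, adjusted p = 0.0011, edgeR) were still called, and dpy-17 was not (1.06 ± 0.37, adjusted p = 0.089).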
